A study of Mus musculus with 6 samples.

Results

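The 49 genes described here carry out mitosis and cytokinesis, the division of the chromosomes and of the cell body, and were picked by symbol from the 34542 rows of a gene count table of mouse fetal liver. They fall into 8 groups by role: mitotic entry (9 genes), the chromosomal passenger complex (4), the spindle assembly checkpoint (5), anaphase onset (4), the centromere and kinetochore (5), mitotic chromosome structure (9), spindle assembly (5), and the central spindle with cytokinesis (8). Polyadenylated RNA of fetal liver was sequenced in 3 libraries from mice lacking the microRNA locus miR-144/451 (KO, replicates 4 to 6). Another 3 libraries came from wild-type mice (WT, replicates 1 to 3). Both groups have the C57BL/6J strain, and the labels' protocol gives 1 fixed number of fetal liver cells for every RNA preparation and names no sorting step. The labels give neither the embryos' age nor whether a library holds 1 embryo or several, and the p-values below measure only the spread between these 6 libraries.

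Before birth red blood cells form chiefly in the liver, and most fetal liver cells are erythroid precursors that divide several times before they stop cycling and lose their nucleus. Mitosis begins when cyclin-dependent kinase and Polo and Aurora kinases become active, continues while the checkpoint holds back the anaphase-promoting complex until every kinetochore is attached, and ends when the central spindle places an actomyosin ring that cuts the cell apart. Transcripts of many of these genes peak in G2 and mitosis. In bulk RNA their level reflects both how many cells divide and how much RNA each dividing cell holds. Fewer cells of a type and less RNA per cell cannot be told apart here.

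The deposited gene table held 24659978 to 44700229 counts per library, and the smallest count of any of the 49 genes in any library was 1249. As a check of the labels, Mir144 had 1, 1 and 0 counts in KO libraries 4, 5 and 6, against 51, 47 and 29 counts in WT libraries 1, 2 and 3. Mir451 had 3, 2 and 4 counts in KO libraries, against 323, 446 and 418 counts in WT libraries. Liver parenchyma differed between libraries of the same genotype: the mean level of 20 hepatocyte genes was 7.69, 8.40 and 9.51 log2 CPM in KO libraries 4, 5 and 6, against 7.84, 9.85 and 7.08 log2 CPM in WT libraries 1, 2 and 3. Their summed level ran over 13829 to 49389 CPM in KO libraries and 9417 to 60488 CPM in WT libraries, and 0 of 20 passed the threshold used below (0 also at an unadjusted p under 0.05 in edgeR, and 0 by DESeq2). KO library 6 and WT library 2 thus held the most hepatocyte RNA, and results are given with and without them. Late erythroid genes were abundant in every library, with a summed level of 21692, 25118 and 20907 CPM in KO libraries, against 37212, 26278 and 31993 CPM in WT libraries. All 13 tested ones had a log2 change below 0, with a median of -0.52; 2 passed the threshold used below in edgeR, 8 were lower at an unadjusted p under 0.05, and DESeq2 called 8 lower. Of 12 early erythroid and progenitor genes 10 were below 0, 3 were lower at an unadjusted p under 0.05, and 0 passed in edgeR or DESeq2. Their mean level in log2(CPM + 1) was 4.82, 4.74 and 4.78 in KO libraries, against 4.99, 4.91 and 4.93 in WT libraries, without overlap, whereas their summed level overlapped, at 902, 829 and 799.6 CPM in KO libraries, against 949, 805 and 905 CPM in WT libraries. The part of erythroid cell numbers in the results below was not tested beyond scaling to late erythroid genes.

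The 2 microRNAs missing in KO fetal livers are shown because their seed (bases 2 to 8, in capitals) is the stretch that pairs with 3' untranslated regions (UTRs) of messenger RNAs. The mature sequences are from RefSeq (mouse, GRCm38.p6, chromosome 11, plus strand).
miR-144-3p: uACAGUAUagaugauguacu
miR-451a: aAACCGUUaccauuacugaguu
The longest annotated 3' UTR of each gene (GENCODE M21, GRCm38) was searched for AACGGTT, the match to the miR-451a seed, and ATACTGT, the match to the miR-144-3p seed. The miR-451a match was found in 0 of 49 mitosis genes, against 2.0% of the 13080 tested genes with a UTR. The miR-144-3p match was found in 3 of 49 genes (6.12%), against 13.0% of those tested genes, and the 49 UTRs have a median length of 606 bases, against 1137.5 bases over those tested genes. The 3 stretches are printed with the match in capitals, which for Cenpf and Mad2l1 runs on into the A of an 8mer.
Cenpf: gaacgtgagacATACTGTAgaatgttggtc
Mad2l1: cagggttacccATACTGTAtatttatatcc
Tpx2: gtggtgagatgATACTGTtcagactgtgtg
None of the 3 genes was higher in KO libraries past the threshold: Cenpf was lower, as given with the kinetochore genes, and the log2 change was -0.15 for Mad2l1 and -0.42 for Tpx2. A seed match is a description of the letters and not a shown binding site.

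The first question was whether the mitosis genes differed between KO and WT fetal livers, and 6 of the 49 were lower in KO libraries while 0 were higher at an adjusted p under 0.05 (edgeR quasi-likelihood test, Benjamini-Hochberg adjustment over 15105 genes). The 6 are Anln, Foxm1, Kif23, Ube2c, Prc1 and Cenpf, and each of them fell by between 35.7% and 42.6%. Over all tested genes, 1.45% were lower and 1.83% higher. At an unadjusted p under 0.05, 28 of the 49 genes were lower and 1 was higher, against 8.78% lower and 7.77% higher over all tested genes. The KO and WT ranges did not overlap for 27 genes, with KO lower for 26 and higher for 1 (Cdc20), against 10.9% and 11.8% of all tested genes. The median log2 change of the 49 genes was -0.34, against -0.030 over all tested genes. Of the 49 genes 45 (91.8%) were below 0, against 55.2% of all tested genes and 91.7% of 24 S phase genes. With libraries scaled to late erythroid genes in place of TMM, the median of the 49 turned to 0.15 and the 6 calls were lost. On that scale the median of all tested genes was 0.44, and 42 of the 49 genes lay below it. DESeq2 called 20 of the 49 genes lower and 0 higher, against 4.32% and 4.34% of the 15101 genes it adjusted.

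The number of edgeR calls changed with single libraries left out. Without WT library 1, WT library 3, KO library 4 or KO library 5, edgeR called 0 of the 49 genes, while 19, 19, 25 and 30 of them were lower at an unadjusted p under 0.05. Without KO library 6 only Anln kept its call, and in these 5 fits the number of all genes called lower was 8, 9, 12, 7 and 44, in place of 219. Without WT library 2 all 6 genes kept their call and the count was 29 genes lower and 0 higher, where 6.61% of all tested genes were lower. Leaving out both libraries rich in hepatocyte RNA also gave 29 lower and 0 higher, against 5.56% of all tested genes lower. The median log2 change of the 49 genes stayed between -0.45 and -0.30 over these 6 fits that leave out 1 library.

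**Figure D1:**
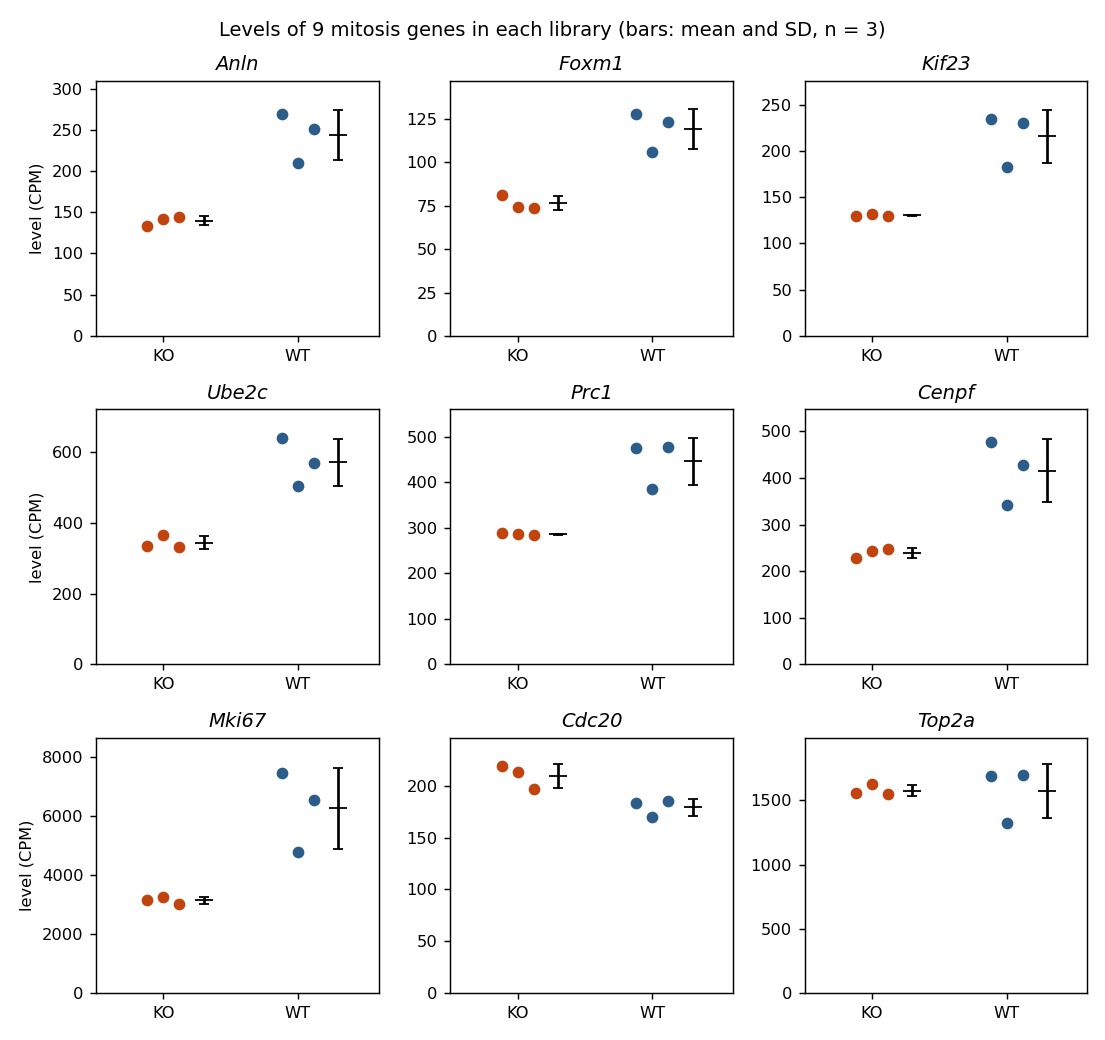
Level in each library (points, CPM, relative to the scaled library size) with mean and SD of 3 libraries, KO left and WT right, for the 6 genes past the threshold and for Mki67, Cdc20 and Top2a. KO points lie below every WT point for the first 7 genes, above them for Cdc20, and among them for Top2a.

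**Figure D2:**
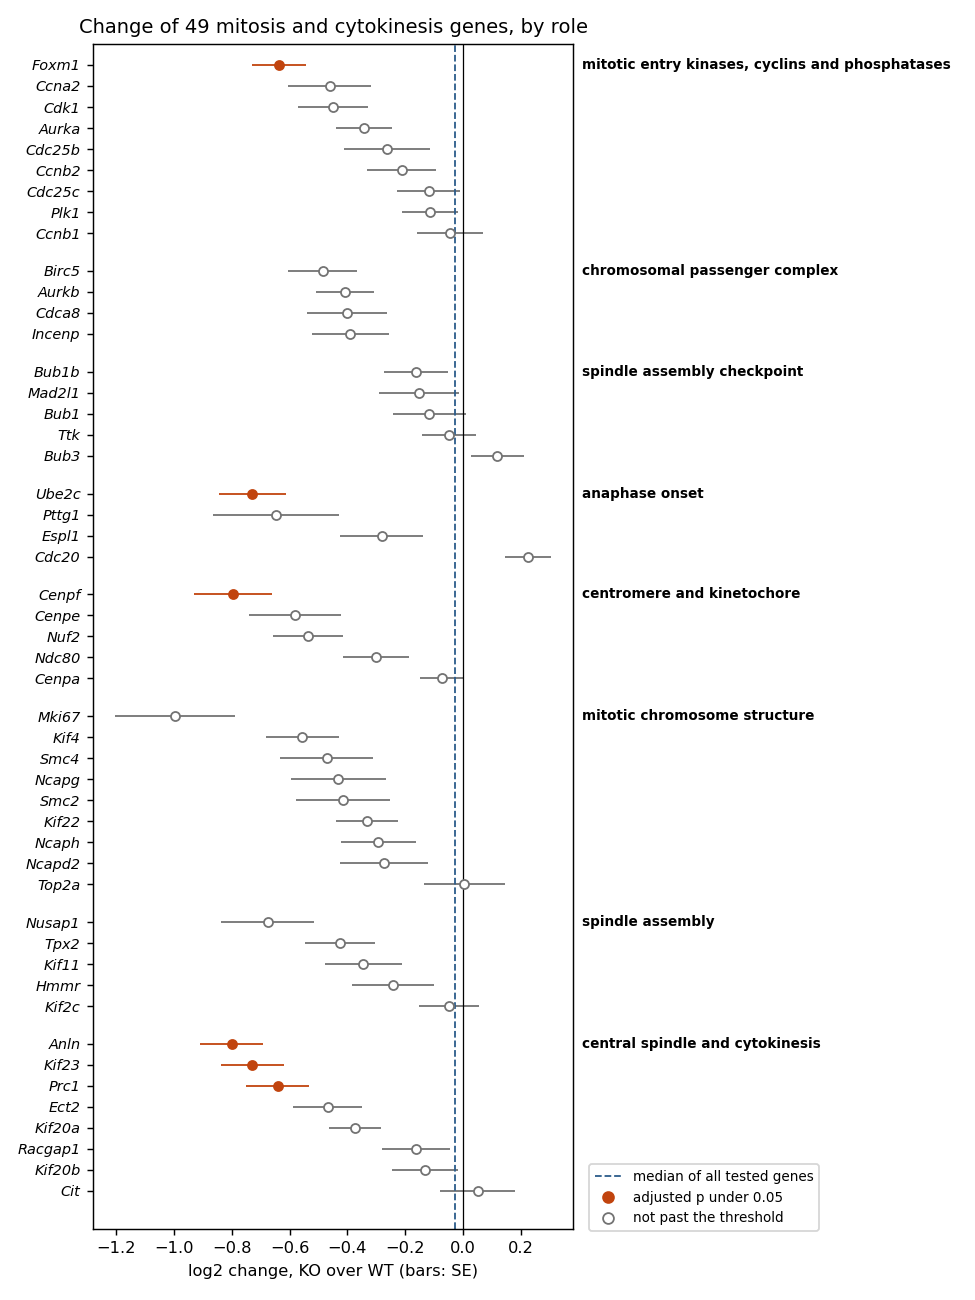
log2 change of KO over WT (points, bars are the SE) for the 49 genes in their 8 role groups, with the median of all tested genes as a dashed line. Filled points are the 6 genes past an adjusted p of 0.05, and 45 of the 49 points lie below 0.

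Mitotic entry is driven by cyclin-dependent kinase 1 with its cyclins, by the Cdc25 phosphatases that activate it, and by Foxm1, the transcription factor that switches on many G2 and M genes. Foxm1 had 81.4, 74.5 and 73.9 CPM in KO libraries 4, 5 and 6, against 128, 106 and 123 CPM in WT libraries 1, 2 and 3. All KO values lay below all WT values, and Foxm1 fell by 35.7% (log2 change -0.64 ± 0.093 SE, adjusted p = 0.0255, edgeR). Of the other 8 entry genes 0 passed the edgeR threshold, although all had a log2 change below 0, and the median of the 9 was -0.26; DESeq2 called 4 of the 9 lower, with Cdk1, Aurka and Ccna2 beside Foxm1. Cdc25b, the phosphatase that leads the group at 261 CPM per kb of exon in KO libraries and 313 in WT libraries, had 798, 882 and 771 CPM in KO libraries, against 1139.6, 816 and 988 CPM in WT libraries. Its ranges overlapped through WT library 2, and the log2 change was -0.26 ± 0.15 (edgeR adjusted p = 0.468).

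Cyclins of the A and B types are given side by side. Ccna2 (cyclin A2, active from S phase to prometaphase) had 684, 732 and 645 CPM in KO libraries, against 1063, 780.3 and 993 CPM in WT libraries, without overlap, and a log2 change of -0.46. Ccnb1 (cyclin B1, the main partner of Cdk1) had 349, 356 and 335 CPM in KO libraries, against 386, 305 and 381 CPM in WT libraries. The KO values of Ccnb1 lay within the WT range, with a log2 change of -0.044 ± 0.11. Neither cyclin passed the edgeR threshold (adjusted p = 0.171 and 0.961); the cyclins were chosen for mention after their values were seen, and the difference between them was not tested. Cdk1 itself, Aurka (a centrosomal kinase) and Ccnb2 had log2 changes of -0.45, -0.34 and -0.21, and Plk1 (Polo-like kinase) and Cdc25c of -0.12 and -0.12. Cdk1 and Aurka did not overlap between the groups, whereas Ccnb2, Plk1 and Cdc25c did.

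The chromosomal passenger complex corrects wrong kinetochore attachments and later moves to the central spindle, and its 4 subunits lay close to each other. The log2 changes were -0.49 for Birc5 (survivin), -0.41 for Aurkb (the kinase), -0.40 for Cdca8 (borealin) and -0.39 for Incenp (the scaffold). Birc5 had 217, 216 and 198 CPM in KO libraries, against 324, 249 and 310.2 CPM in WT libraries. Incenp, with the highest CPM of the 4 when length is not taken into account, had 290.4, 286 and 256 CPM in KO libraries, against 384, 301 and 406 CPM in WT libraries. All 4 subunits had every KO value below every WT value and an unadjusted p under 0.05, yet 0 of 4 passed the edgeR threshold, with adjusted p from 0.0930 (Birc5) to 0.212 (Cdca8). DESeq2 called 2 of the 4 lower, Birc5 and Aurkb.

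The spindle assembly checkpoint, which delays anaphase while a kinetochore is unattached, showed 0 of 5 genes past the threshold and a median log2 change of -0.12. Bub1b (BubR1, part of the inhibitor of the anaphase-promoting complex) had the highest level of the 5 per kilobase of exon, at 61.2 CPM per kb in KO libraries and 68.5 CPM per kb in WT libraries. Before division by length it had 229, 229 and 215 CPM in KO libraries, against 265, 215 and 273 CPM in WT libraries. WT library 2 lay just below the lowest KO library, and the log2 change was -0.16 ± 0.11 (edgeR adjusted p = 0.570). Mad2l1, Bub1 and Ttk (the Mps1 kinase) had log2 changes of -0.15, -0.12 and -0.048. Bub3, which brings Bub1 and BubR1 to the kinetochore, had 173, 165 and 156 CPM in KO libraries, against 157, 137 and 162 CPM in WT libraries, and a log2 change of 0.12 ± 0.092. In the GRCm38 annotation Bub3 shares 11674 bases with Fgfr2 on the other strand, and the strand setting of the counting is not given. For all 5 checkpoint genes the ranges overlapped, and 0 of 5 reached an unadjusted p under 0.05 in edgeR; DESeq2 called 0 of 5 as well.

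At anaphase onset the anaphase-promoting complex marks securin and cyclin B for destruction, with Ube2c as its ubiquitin-conjugating enzyme and Cdc20 as its activator. Ube2c had 335, 366 and 333 CPM in KO libraries, against 639.9, 505 and 569.5 CPM in WT libraries. The groups were apart for Ube2c, which fell by 39.7% (log2 change -0.73 ± 0.12, adjusted p = 0.0300, edgeR). Cdc20 stood on the other side, with 219, 214 and 197 CPM in KO libraries, against 184, 170.2 and 185 CPM in WT libraries. Every KO value of Cdc20 was above every WT value, with a log2 change of 0.22 ± 0.079 that did not pass the threshold (edgeR unadjusted p = 0.0273, adjusted p = 0.224); Cdc20 was singled out after its values were seen. Pttg1 (securin) had 71.0, 67.0 and 54.3 CPM in KO libraries, against 135, 83.8 and 81.9 CPM in WT libraries, with WT library 1 far above the other two WT libraries and a log2 change of -0.65 ± 0.22. Espl1 (separase, the protease that cleaves cohesin) overlapped between groups, with a log2 change of -0.28.

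Among centromere and kinetochore genes, 1 of 5 was lower in edgeR and the median log2 change was -0.54; DESeq2 called 3 of 5 lower, with Cenpe and Nuf2 beside Cenpf. Cenpf, a large coiled-coil protein that joins the outer kinetochore in G2, had 228, 242 and 248 CPM in KO libraries, against 478, 342 and 428 CPM in WT libraries. KO values were all below WT values, and Cenpf fell by 42.4% (log2 change -0.80 ± 0.14, adjusted p = 0.0345, edgeR). Nuf2, a subunit of the Ndc80 complex that grips microtubules, had 100.2, 110.2 and 99.4 CPM in KO libraries, against 167, 125 and 158 CPM in WT libraries, apart but with an edgeR adjusted p of 0.0767 (log2 change -0.54 ± 0.12). Its partner Ndc80 had a log2 change of -0.30 and Cenpe (a kinetochore motor) of -0.58, both without overlap. Cenpa, the centromere-specific histone H3 laid down mainly in G1, had 161, 165 and 159 CPM in KO libraries, against 177, 157 and 175 CPM in WT libraries, with overlap and a log2 change of -0.072.

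Mitotic chromosome structure genes include the condensin subunits, the chromosome-bound kinesins, topoisomerase II and Ki-67, and 0 of these 9 passed the edgeR threshold although 8 were below 0 (median -0.42), 6 were lower at an unadjusted p under 0.05 and DESeq2 called 3 lower (Mki67, Kif4 and Smc4). Mki67 (Ki-67, which coats mitotic chromosomes and marks cycling cells) had 3145, 3253 and 3008 CPM in KO libraries, against 7472, 4764 and 6528 CPM in WT libraries. The WT libraries spread widely but all lay above the KO libraries. Its log2 change of -1.0 ± 0.21 was the furthest from 0 of the 49 genes, with an edgeR adjusted p of 0.0606; limma-voom gave 0.0383 and DESeq2 1.83e-07. Per kilobase of exon Mki67 was also the most abundant of the 49 transcripts, at 312 CPM per kb in KO libraries and 622 CPM per kb in WT libraries.

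Top2a, which untangles sister DNA and is the other widely used marker of cycling cells in this group, had 1554, 1627 and 1546 CPM in KO libraries, against 1687, 1326 and 1699 CPM in WT libraries. KO values lay inside the WT range, with a log2 change of 0.0044 ± 0.14; per kilobase it stood at 302 CPM in KO libraries and 301 CPM in WT libraries, so Mki67 and Top2a were nearly level in KO libraries but not in WT libraries. Top2a was singled out after its values were seen. Kif4, a chromosome-bound kinesin, had 146, 155 and 133 CPM in KO libraries, against 234, 178 and 226 CPM in WT libraries, without overlap (log2 change -0.56 ± 0.13, edgeR adjusted p = 0.0781). The 5 condensin genes had log2 changes of -0.47 (Smc4), -0.43 (Ncapg), -0.42 (Smc2), -0.29 (Ncaph) and -0.27 (Ncapd2), of which only Smc4 did not overlap between the groups. Kif22, another chromosome-bound kinesin, had a log2 change of -0.33, without overlap.

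In the spindle assembly group 0 of 5 genes passed the threshold, all 5 were below 0 and the median log2 change was -0.34; 3 were lower at an unadjusted p under 0.05, and DESeq2 called Nusap1 and Tpx2 lower. Nusap1, which binds and bundles spindle microtubules, had 291, 336 and 303 CPM in KO libraries, against 592, 395 and 501 CPM in WT libraries, apart but with a wide WT spread (log2 change -0.68 ± 0.16, edgeR adjusted p = 0.0872). Kif11 (Eg5, the motor that separates the spindle poles) had 443, 469.9 and 463 CPM in KO libraries, against 657, 479 and 611 CPM in WT libraries. Its lowest WT library was just above its highest KO library, with a log2 change of -0.34 ± 0.13 (edgeR adjusted p = 0.270). Tpx2 (activator of Aurora A) had a log2 change of -0.42 without overlap, and Hmmr and the microtubule-depolymerising kinesin Kif2c had -0.24 and -0.048 with overlap.

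The central spindle and cytokinesis group held 3 of the 6 called genes, and those 3 act together at the division plane: Prc1 bundles the central spindle, Kif23 (MKLP1) is the motor of centralspindlin, and Anln (anillin) links the contractile ring to the membrane. Anln had 134, 142 and 144 CPM in KO libraries, against 269, 209.9 and 251 CPM in WT libraries. Kif23 had 129.9, 131 and 129.6 CPM in KO libraries, against 235, 183 and 230.0 CPM in WT libraries. Prc1 had 288, 285 and 285 CPM in KO libraries, against 475, 386 and 477 CPM in WT libraries. For all 3 the KO libraries were close to each other and below every WT library, of which WT library 2 was the lowest.

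Anln averaged 139.9 ± 5.56 CPM in KO libraries and 243 ± 30.5 CPM in WT libraries (SD, n = 3 each), and fell by 42.6% (log2 change -0.80 ± 0.11, adjusted p = 0.0215, edgeR), the smallest adjusted p of the 49 genes. Kif23 averaged 130.3 ± 0.928 CPM in KO libraries and 216 ± 28.9 CPM in WT libraries, and fell by 39.7% (log2 change -0.73 ± 0.11, adjusted p = 0.0273, edgeR). Prc1 averaged 286 ± 1.49 CPM in KO libraries and 446 ± 52.2 CPM in WT libraries, and fell by 35.9% (log2 change -0.64 ± 0.11, adjusted p = 0.0336, edgeR). In the GRCm38 annotation Prc1 shares 21810 bases with Rccd1 and Ube2c shares 1662 bases with Tnnc2 on the other strand, and as the strand setting of the counting is not given in the sources used here, reads from these stretches cannot be told apart. Foxm1 shares 691 bases with Tex52 and 644 bases with Gm44596, and Anln shares 1228 bases with Gm48646. These 3 overlaps are on the same strand, where a strand setting would not separate the reads.

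The other 5 cytokinesis genes did not pass in edgeR, and DESeq2 called Kif20a and Ect2 lower, which made 5 of the 8 in that test. Kif20a (MKLP2, which carries the passenger complex to the central spindle) had 191, 182 and 180.3 CPM in KO libraries, against 255, 214 and 248 CPM in WT libraries, without overlap (log2 change -0.37 ± 0.091, edgeR adjusted p = 0.0936). Ect2, which is needed to form the cleavage furrow, had a log2 change of -0.47 without overlap. Racgap1, the other centralspindlin subunit, had 213, 221 and 196 CPM in KO libraries, against 253, 199 and 254 CPM in WT libraries, with overlap at WT library 2 and a log2 change of -0.16 ± 0.12. Kif20b and Cit (citron kinase, of the midbody) had log2 changes of -0.13 and 0.051, both with overlap.

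The libraries of each genotype were not alike, and the 49 genes moved together across them. WT library 2 was the lowest WT library for 48 of the 49 genes, and KO library 6 was the lowest KO library for 40 of 49. These are the libraries with the most hepatocyte RNA, and the summed late erythroid and S phase levels were also lowest there within each group. How often these libraries were lowest over all tested genes was not counted. The median deviation of the 49 genes from their mean over the 6 libraries was -0.15, -0.11 and -0.26 on the log2 scale in KO libraries 4, 5 and 6, against 0.31, -0.073 and 0.25 in WT libraries 1, 2 and 3. The median of WT library 2 thus lay nearer to the KO libraries than to the other two WT libraries, while that library was the highest of all 6 for hepatocyte genes. The 49 genes took 1.68%, 1.70% and 1.56% of all counts in KO libraries, against 2.35%, 1.84% and 2.30% in WT libraries. Without Mki67 the shares were 1.35%, 1.37% and 1.25% in KO libraries, against 1.66%, 1.36% and 1.66% in WT libraries, so WT library 2 fell inside the KO range. With the hepatocyte level as a covariate, edgeR called 27 of the 49 genes lower and 1, Cdc20, higher, where 8.63% of all tested genes were lower and 8.55% higher. Scaling by upper quartile factors gave 13 genes lower, where 2.46% of all tested genes were lower. The part of hepatocyte RNA in the difference between genotypes was not tested beyond these fits.

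**Figure D3:**
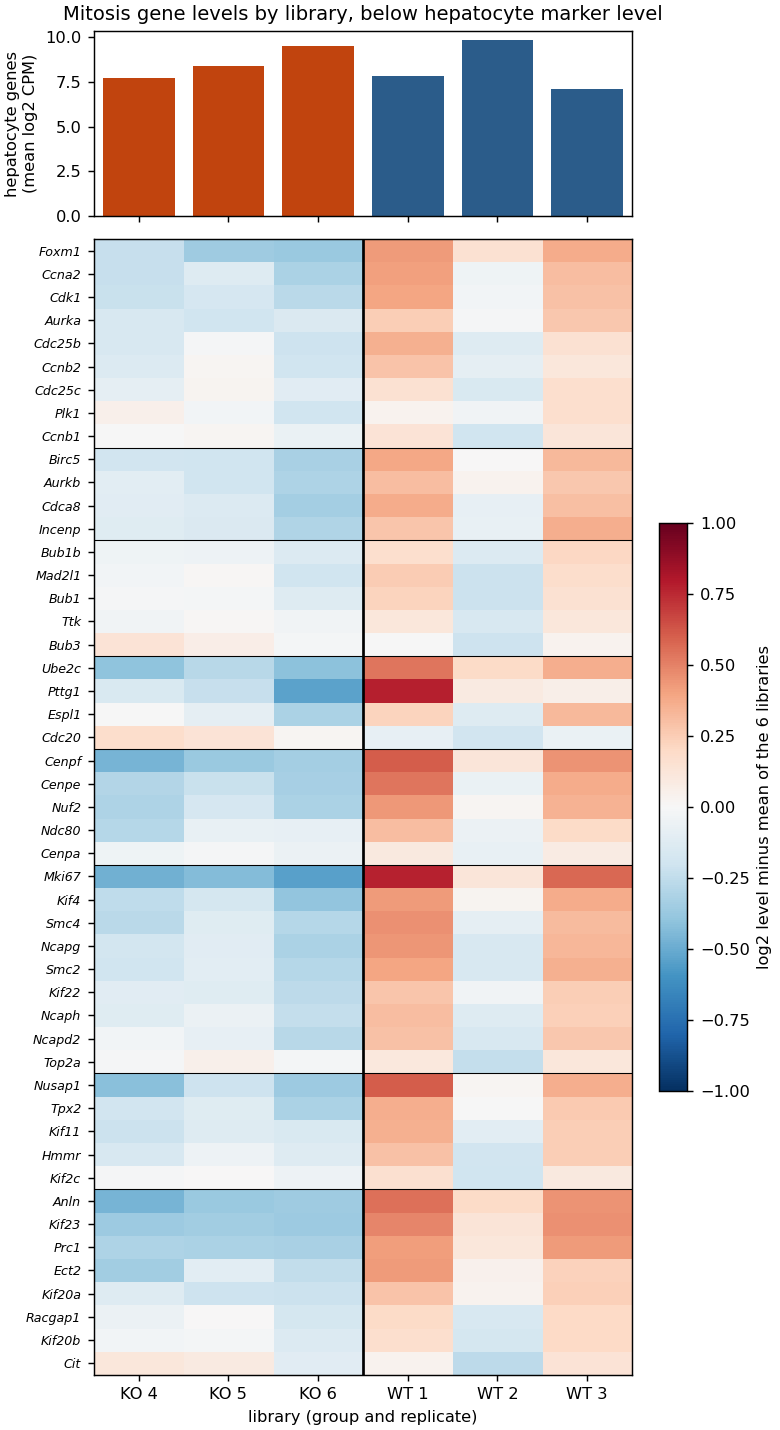
Top, mean level of 20 hepatocyte genes (log2 CPM) in each library, KO libraries 4 to 6 left of WT libraries 1 to 3; bottom, log2 level of each of the 49 genes minus its mean over the 6 libraries, in role groups. WT library 2, with the highest bar at 9.85, is the lowest WT library in 48 of the 49 rows.

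The direction of the mitosis genes depended on the scaling, and the late erythroid and S phase lists had median log2 changes of -0.52 and -0.23 with TMM. When libraries were scaled to 13 late erythroid genes in place of TMM, the median log2 change of all tested genes moved to 0.44 and that of the 49 genes to 0.15. On that scale 1 mitosis gene (Mki67) was lower and 14 were higher by edgeR, where 0.622% of all tested genes were lower and 24.4% higher; the 14 include Cdc20, Bub3, Top2a and Ccnb1. When libraries were scaled to 24 S phase genes, the median of all tested genes was 0.25 and that of the 49 genes -0.041. On that scale 5 mitosis genes (Mki67, Anln, Kif23, Ube2c and Cenpf) were lower and 3 (Cdc20, Bub3 and Cit) were higher by edgeR, where 0.947% of all tested genes were lower and 7.88% higher. This last scaling was chosen after seeing the data. In each of the 17 fits the median of the 49 genes lay below the median of all tested genes, by 0.25 to 0.45 on the log2 scale. A change of scaling shifts all genes by nearly the same amount, so it could hardly alter this gap. The other fits reuse the same libraries, so the fits are not separate support.

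**Figure D4:**
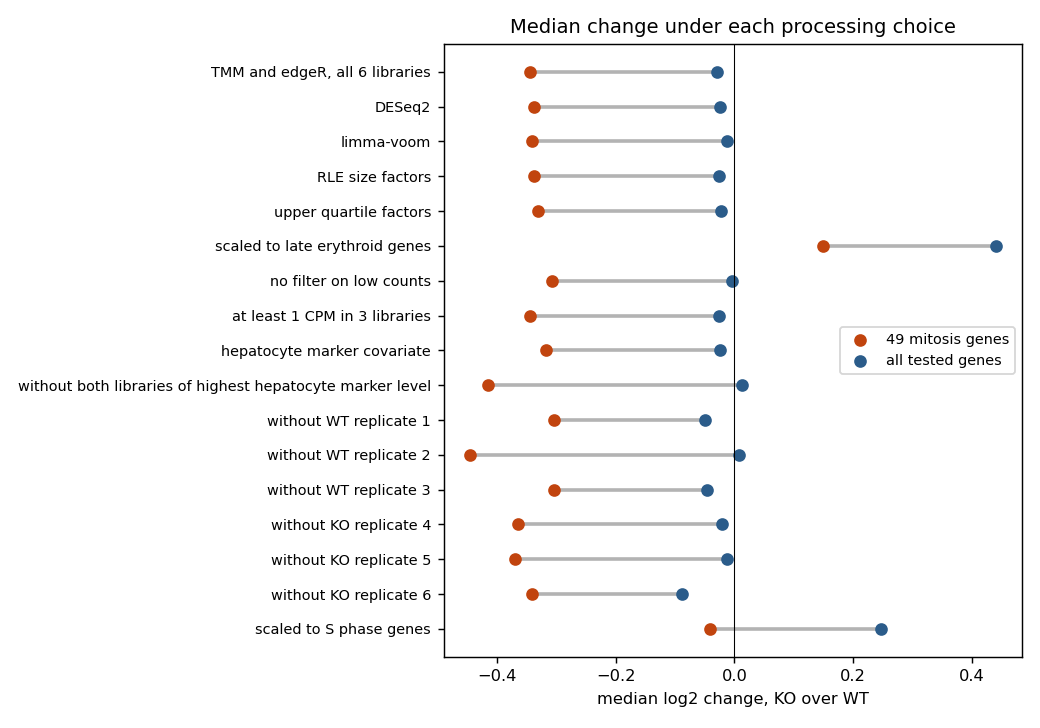
Median log2 change of KO over WT for the 49 mitosis genes and for all tested genes under each of 17 processing choices (rows). The mitosis point lies left of the all-gene point in every row, and scaling to late erythroid genes moves both to the right, to 0.15 and 0.44. A change of scaling moves both points by nearly the same amount, and the rows share their libraries.

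Intron counts, which come largely from unspliced transcripts, gave a second reading of the same genes. In edgeR 0 of the 49 genes passed an adjusted p of 0.05 on intron counts in either direction, where 0.483% of the 11803 tested genes were lower and 0.237% higher; DESeq2 called 10 of the 49 genes lower and 0 higher, against 1.82% and 0.983% of the 11801 genes it adjusted. At an unadjusted p under 0.05, 22 of the 49 genes had lower intron counts and 0 had higher, against 5.45% lower over all tested genes. The median intronic log2 change of the 49 genes was -0.33, against 0.022 over all tested genes, and 46 of 49 were below 0, against 47.0%. Without WT library 3 the count by edgeR was 10 lower, where 1.01% of all tested genes were lower.

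The genes called in gene counts had intronic changes in the same direction, as did most of the 49 genes. Prc1 had 297, 277 and 299.6 intronic CPM in KO libraries, against 459, 501 and 405 intronic CPM in WT libraries, without overlap (intronic log2 change -0.64 ± 0.13, edgeR unadjusted p = 0.00102, adjusted p = 0.0810). Ube2c had 275, 254 and 238 intronic CPM in KO libraries, against 458, 409.9 and 349 intronic CPM in WT libraries, also apart, with an intronic log2 change of -0.67. The intronic log2 changes were -0.62 for Anln, -0.61 for Cenpf, -0.54 for Kif23, -0.39 for Foxm1 and -0.67 for Mki67. Prc1 again shares its interval with Rccd1, and reads of the one cannot be told from those of the other.

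Racgap1 and Cdc20 had the most different gene and intron values among the 49. Racgap1 had 191, 170.1 and 195 intronic CPM in KO libraries, against 323, 342 and 257 intronic CPM in WT libraries, without overlap (intronic log2 change -0.73 ± 0.14, adjusted p = 0.0810 in edgeR). Cdc20 had 85.4, 77.0 and 94.9 intronic CPM in KO libraries, against 101, 104 and 98.7 intronic CPM in WT libraries, with an intronic log2 change of -0.24, whereas every KO value of its gene counts was above every WT value. In 1 fit over exon and intron counts, the exonic minus intronic change passed the adjusted threshold for 0 of 49 genes and for 0% of the 11100 genes tested (edgeR; DESeq2 also called 0 of 49). At an unadjusted p under 0.05 it was higher for Racgap1 (log2 0.57 ± 0.23) and Cdc20 (log2 0.47 ± 0.17) and lower for 0 genes, and 3.17% of all tested genes were past that level in either direction. The median exonic minus intronic change of the 49 genes was -0.037, against -0.059 over all tested genes.

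**Figure D5:**
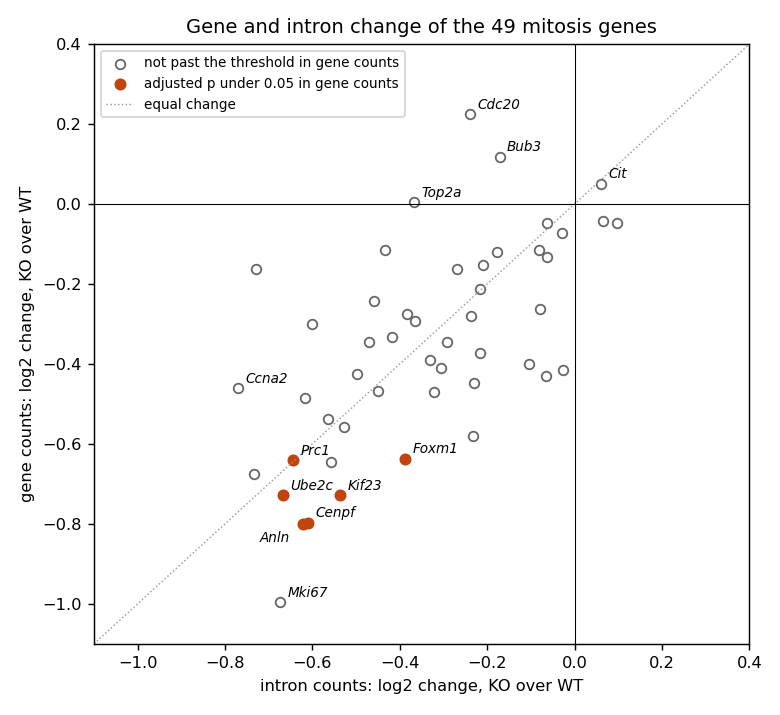
Intronic log2 change (x axis) against gene-level log2 change (y axis), KO over WT, for each of the 49 genes, with the line of equal change dotted. The 6 filled points, past the threshold in gene counts, lie at the lower left, and Cdc20, Bub3 and Top2a lie above 0 in gene counts but below 0 in intron counts.

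Genes of G2 and mitosis are known to share promoter elements, the cell cycle homology region (CHR, TTTGAA) bound by the DREAM and MuvB complexes and the CCAAT box bound by NF-Y. RefSeq promoters (GRCm38.p6, 250 bases before to 50 after the start) were in hand for 41 of the 49 genes, and both motifs were searched on both strands. A gene with several listed promoters was counted if any of them held the motif, so both motifs need not lie in the same promoter. TTTGAA was found in 30 of 41 (73.2%), against 14.6% of the 9801 tested genes with a promoter and 20.2% of all 27025 genes with a promoter. CCAAT was found in 30 of 41 (73.2%), against 43.1% and 41.1%, and both motifs in 26 of 41 (63.4%), against 7.30% and 8.97%. With 1 promoter taken per gene, the median position of the 39 TTTGAA matches was -5 from the start and that of the 67 CCAAT matches was -74. All 5 called genes in the table held TTTGAA, as did 25 of the 36 genes that were not called. The median log2 change was -0.32 with TTTGAA and -0.29 without it, a difference that was not tested.

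The windows below run from 120 bases before to 30 bases after the start, 5′ to 3′ on the gene's strand, with whole matches to TTTGAA or CCAAT on either strand (TTCAAA and ATTGG on the other) in capitals. The first 5 belong to the called genes in the table, and the last 3 to Cdc20, Top2a and Cit, which were not lower in KO libraries. Bub3, whose log2 change was also above 0 (0.12), holds both motifs in its searched promoters and is not printed.
Ube2c (chr2:164769809-164769958, plus strand): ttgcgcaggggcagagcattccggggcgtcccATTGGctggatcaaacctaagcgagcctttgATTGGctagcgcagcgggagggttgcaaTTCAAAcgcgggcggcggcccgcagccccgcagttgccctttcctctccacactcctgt
Cenpf (chr1:189688057-189688206, minus strand): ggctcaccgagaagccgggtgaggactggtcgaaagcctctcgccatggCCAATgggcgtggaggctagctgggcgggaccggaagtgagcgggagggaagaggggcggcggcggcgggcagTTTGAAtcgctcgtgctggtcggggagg
Kif23 (chr9:61946770-61946919, minus strand): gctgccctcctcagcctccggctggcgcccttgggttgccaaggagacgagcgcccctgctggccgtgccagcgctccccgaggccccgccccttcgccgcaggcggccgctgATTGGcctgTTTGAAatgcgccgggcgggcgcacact
Anln (chr9:22389177-22389326, minus strand): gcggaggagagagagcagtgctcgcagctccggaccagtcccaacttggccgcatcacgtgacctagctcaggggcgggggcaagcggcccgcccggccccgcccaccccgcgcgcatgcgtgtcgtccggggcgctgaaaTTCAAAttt
Prc1 (chr7:80294331-80294480, plus strand): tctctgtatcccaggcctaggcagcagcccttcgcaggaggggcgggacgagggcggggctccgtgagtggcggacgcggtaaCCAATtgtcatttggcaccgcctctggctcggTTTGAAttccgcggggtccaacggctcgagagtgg
Cdc20 (chr4:118437314-118437463, minus strand): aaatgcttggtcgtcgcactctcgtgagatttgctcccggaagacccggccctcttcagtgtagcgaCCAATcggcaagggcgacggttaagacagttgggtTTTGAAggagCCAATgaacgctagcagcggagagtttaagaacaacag
Top2a (chr11:99024160-99024309, minus strand): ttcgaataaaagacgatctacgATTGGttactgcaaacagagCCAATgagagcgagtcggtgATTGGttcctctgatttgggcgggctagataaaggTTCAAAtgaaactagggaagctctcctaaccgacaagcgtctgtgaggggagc
Cit (chr5:115845536-115845685, plus strand): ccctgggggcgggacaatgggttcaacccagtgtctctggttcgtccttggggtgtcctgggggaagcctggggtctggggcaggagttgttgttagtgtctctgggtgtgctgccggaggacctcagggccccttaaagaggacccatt
Cdc20 and Top2a carry both motifs, as Ube2c, Cenpf, Kif23 and Prc1 do. Anln carries TTTGAA but no CCAAT in its searched promoter, and Cit carries neither. The GENCODE start of Cit (115845278) lies before its searched promoter, so the bases before that start were not searched. A match is only a run of letters, and a missing match says nothing about binding outside these windows.

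The other genes of the mitotic machinery were counted by list. Over all tested genes, 1.45% were lower and 1.83% higher by edgeR at an adjusted p under 0.05. In the list of other spindle, motor and centrosome genes, 3 of 27 were lower and 0 higher (edgeR, adjusted p under 0.05; median log2 change -0.36): Kifc1 and Kif18a, both spindle kinesins, with log2 changes of -0.50 and -0.79, and Arhgap11a, with -0.56. Among other kinetochore and centromere genes 2 of 29 were lower (median -0.32), Mis12 (-0.64) and Cenpl (-0.78). In the anaphase-promoting complex list 2 of 16 were lower, and these were Fbxo5 (Emi1, an inhibitor of the complex, log2 change -0.74) and Ube2s (its chain-extending enzyme, -0.69), while the median was -0.0036. At an unadjusted p under 0.05 (edgeR), 15 of 27, 15 of 29 and 3 of 16 were lower, against 8.78% of all tested genes. In the same order 1, 0 and 1 were higher, against 7.77%. DESeq2 called 7, 5 and 3 lower and 1, 0 and 1 higher, against 4.32% and 4.34% of the genes it adjusted.

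Cohesin genes had 1 of 15 lower, Sgol1 (shugoshin, protector of centromeric cohesion, log2 change -0.63), with a median of -0.14. At an unadjusted p under 0.05 (edgeR) 3 of these 15 were lower and 0 higher, and DESeq2 also called 3 lower and 0 higher. Other G2 and M regulators had 1 of 19 lower, Ccnf (cyclin F), which had 164, 148 and 159.8 CPM in KO libraries, against 263, 242 and 272 CPM in WT libraries, without overlap (log2 change -0.72 ± 0.084, edgeR adjusted p = 0.0160). All 19 of these regulators were below 0, 9 were lower at an unadjusted p under 0.05 (edgeR), and DESeq2 called 7 lower. The contractile ring, septin and enucleation list had 0 of 18 lower and 1 higher in edgeR (3 lower at an unadjusted p under 0.05, and 1 lower and 1 higher by DESeq2). The higher one was the small GTPase Rac1, with 341, 354 and 325 CPM in KO libraries, against 171, 171 and 152 CPM in WT libraries (log2 change 1.05 ± 0.086, edgeR adjusted p = 0.00830). Of the 12 DREAM, MuvB and B-MYB genes 0 passed in edgeR, with 5 lower and 1 higher at an unadjusted p under 0.05, and DESeq2 called 2 lower and 1 higher. The most abundant of them, Tfdp2 and Rbbp4, had log2 changes of -0.46 and -0.32. Of 24 S phase genes 1 was lower, Rrm2 (ribonucleotide reductase, log2 change -0.97), and the median was -0.23.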

How the data were processed

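Values are raw counts by gene symbol in 2 deposited tables: gene counts, without globin or mitochondrial genes per the file names, and exon and intron counts for 15543 genes. The exon counts equal the gene counts for all 15543 genes, so they are the same measurement. STAR and HTSeq, and the builds NCBIM37 and mm10, are named per the submitters' processing notes; the sources used here do not give each table's build, gene models, strand setting or definition of introns. Groups and replicate numbers came from the sample titles.

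The KO and WT counts, scaled with TMM factors (trimmed mean of M values), were compared by the quasi-likelihood F test of edgeR 4.0.16 in R 4.3.3 (filterByExpr, minimum count 10 and minimum total 15), two-sided, at a threshold of 0.05 on p-values adjusted by Benjamini-Hochberg over all tested genes. SE was taken from the F statistic, and levels are CPM of the TMM-scaled library size. The exonic minus intronic change was the interaction of region with genotype in 1 edgeR fit with a term per sample, with exon and intron counts scaled separately. DESeq2 1.42.0, limma 3.58.1 (voom), other scalings, filters, a hepatocyte covariate and leaving out libraries were the alternatives. Chi-square per degree of freedom between libraries of a group was 16.7 to 157, so each library counted as 1 replicate. The scripts were run on simulated counts with known changes. These had 1 fixed spread and no shift shared by the genes of a library, so that run does not cover the differences between libraries seen here.

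Values per library are given for genes past the threshold, then by smallest p up to 12 genes, and for the gene of highest CPM in each role; other genes given per library were added after their values were seen. In other lists, up to 4 called genes, or the 2 of highest CPM, are named. The 49 genes, the role groups and all lists were chosen with earlier results of these data known. Exon lengths, UTRs and overlaps come from GENCODE M21 (GRCm38). The labels' design text names HITS-CLIP, and such data were not analysed here.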

Additional observations from a re-analysis of the deposited data

How the results depend on the processing

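By edgeR 6 of the 49 genes were lower in KO libraries and 0 higher, against 1.45% and 1.83% of all tested genes. The number lower, with the share of all genes in brackets, was 20 with DESeq2 (4.32%) and 13 with upper quartile factors (2.46%). It was 1 with late erythroid scaling (0.622%), 27 with the hepatocyte covariate (8.63%) and 29 without both libraries of highest hepatocyte level (5.56%). Leaving out 1 library at a time gave 0 to 29 lower, with 29 without WT library 2 (6.61%). The number higher was 14 with late erythroid scaling, where 24.4% of all tested genes were higher. It was 3 with S phase scaling (chosen after seeing the data), where 7.88% were higher, and 1 with the hepatocyte covariate, where 8.55% were higher. The median log2 change turned to 0.15 with late erythroid scaling and moved to -0.041 with S phase scaling; with 1 library left out it was -0.45 to -0.30. In intron counts DESeq2 called 10 genes lower, against 1.82% of the genes it adjusted, and late erythroid scaling moved the median to -0.11. With 1 library left out 0 to 10 genes were lower, and the median was -0.51 to -0.24. The 10 came without WT library 3, where 1.01% of all tested genes were lower.

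For single genes late erythroid scaling turned the log2 change to 0.0089 (Birc5), 0.12 (Kif20a), 0.23 (Cdc25b), 0.10 (Incenp), 0.33 (Bub1b) and 0.16 (Kif11), and S phase scaling to 0.043 (Cdc25b) and 0.14 (Bub1b); each lay below the median of all genes on that scale (0.44 and 0.25), which such scaling shifts with every gene. Of 256 recomputed values for 16 genes, 171 kept direction and side of the threshold, 39 passed it newly and 38 lost it. The cause of the other shifts was not tested. The limma-voom, RLE and filter alternatives called 5 to 7 genes lower. No paired analysis was possible because KO and WT libraries share no replicate numbers. With 3 libraries a group, smaller changes such as those of the checkpoint genes may be missed; the smallest count of any gene in a library was 1249.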

Other observations

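The 11 tested neutrophil and mast cell genes were all below 0 (median log2 change -0.57), with 0 past the edgeR threshold and 1 at an unadjusted p under 0.05. Their summed level was 1522, 3197 and 2121 CPM in KO libraries 4, 5 and 6, against 4179.9, 3362 and 2398 CPM in WT libraries 1, 2 and 3, so the groups overlapped. The 8 B lymphoid genes were also all below 0 (median -0.61, 0 past either level by edgeR), and the 8 endothelial genes were all above 0 (median 0.13, 0 past either level).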
